A study of Mus musculus with 24 samples.

Results

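Protein-protected sites (PPSs) were mapped on 4 mouse transcripts, Appl2, Dido1, Aff1 and Adar, in MEL cells. The study had measured these transcripts in a pulldown of DKC1, with Appl2 and Dido1 as predicted targets and Aff1 and Adar as negative controls. Their sites were all PPSs that overlapped 1 of the 4 gene bodies by at least 1 nt on the same strand, of any length. This gave 669 of the 460777 PPSs in the lists of the series. By gene, there were 41 PPSs on Appl2, 163 on Dido1, 336 on Aff1 and 129 on Adar.

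MEL is a line of murine erythroleukemia cells, grown in suspension, that enters erythroid maturation when DMSO is added to the medium. The groups were uninduced cells (day 0) and cells after 2 or 4 days in DMSO, all fixed with formaldehyde. In PIP-seq, lysates are digested with an RNase that cuts single-stranded RNA (ssRNase, RNaseONE) or double-stranded RNA (dsRNase, RNaseV1), with bound proteins in place or after their removal, and stretches richer in reads when proteins are in place are called as PPSs. The 24 libraries covered each of the 12 combinations of day, RNase and protein state with 2 replicates. Each day has 1 list of PPSs, in which every PPS names the RNase and replicate of its calls, so a day has 4 call sets.

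DKC1 (dyskerin) is the pseudouridine synthase of H/ACA ribonucleoproteins, which guide RNA modification and also form part of telomerase. APPL2 is an adaptor protein of early endosomes that binds Rab5 and membranes through its BAR and PH domains. DIDO1 is a nuclear protein with a PHD finger and a SPOC domain that binds chromatin, and its gene gives isoforms of several lengths from alternative 3′ ends. AFF1 (AF4) is a scaffold of the super elongation complex, which releases paused RNA polymerase II, and a frequent fusion partner of KMT2A in leukemia. ADAR (ADAR1) converts adenosine to inosine in double-stranded RNA.

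In mm10 (GRCm38), Appl2 lies at chr10:83600033-83648738 on the minus strand, with 5949 exonic nt joined over 14 transcripts. Dido1 lies at chr2:180657964-180709999 on the minus strand and has 13307 exonic nt in 7 transcripts. Aff1 lies at chr5:103692374-103855322 on the plus strand, with 9458 exonic nt in 5 transcripts. Adar lies at chr3:89715022-89753446 on the plus strand, and its 9 transcripts hold 8118 exonic nt. Exon and intron numbers below refer to the transcripts with the longest CDS, which are Appl2-201 (21 exons), Dido1-202 (16 exons), Aff1-201 (20 exons) and Adar-203 (15 exons).

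The study chose Appl2 and Dido1 for matches to a sequence motif enriched in PPSs, so a match on them is no independent evidence. The word of the motif has 8 letters, TTGAACGT with T for U. Its first 6, TTGAAC, were searched exactly on the RNA strand of the 4 genes, as letters and not as the motif's matrix. Places that match the matrix but not these letters would be missed. There were 5 such matches in exons, 2 of them on Dido1 and 1 on each of Appl2, Aff1 and Adar. Only the match on Adar, a control, carried all 8 letters. The 5 matches are shown 5′ to 3′ with the 6 searched letters in capitals, since the motif was part of how the targets were chosen.
Appl2, exon of Appl2-205, chr10:83603318-83603347, minus strand: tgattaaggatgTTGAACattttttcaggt
Dido1, 3′ end of Dido1-201 and Dido1-206, chr2:180668599-180668628, minus strand: tgctaaatattcTTGAACatgctgtcatag
Dido1, 3′ end of Dido1-204 and Dido1-207, chr2:180683527-180683556, minus strand: cttggtaagtatTTGAACtgctctcaacaa
Aff1, exon 18, coding, chr5:103847721-103847750, plus strand: tgccagtcccttTTGAACatggcgatgttt
Adar, exon of Adar-209, chr3:89716228-89716257, plus strand: accttctctgttTTGAACgtttgctcctga

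Both matches on Dido1 lay inside PPSs. The first lay in a PPS of 53 nt on day 2 with 1 ssRNase call of replicate 2 and a score of 5.4, the lowest in the lists. The second lay in a PPS of 57 nt on day 2 (1 ssRNase call of replicate 2, score 13.5) and in a PPS of 59 nt on day 4 (1 ssRNase call of replicate 1, score 8.35). So none of the PPSs that held the letters on a Dido1 exon had calls of both replicates. The match on Aff1, a control, lay in a PPS of 51 nt on day 4 with 1 dsRNase call of replicate 1. The exonic matches on Appl2 and Adar lay in no PPS of any day. Of all exonic PPSs of protein-coding genes, 2.01% held the 6 letters, so at these sizes the 4 genes hold too few for a comparison of targets with controls. In introns, 0 of 9 matches on Appl2, 2 of 18 on Dido1, 4 of 61 on Aff1 and 1 of 9 on Adar lay in PPSs. A match of letters is not a binding site, and its absence says nothing about DKC1.

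Appl2 went from nearly no PPSs to many. It held 2 PPSs on day 0, 13 on day 2 and 26 on day 4. PPSs with calls of both replicates numbered 0, 2 and 11. Dido1 held 46, 55 and 62 PPSs, of which 9, 15 and 17 had both replicates. Of the controls, Aff1 held 114, 111 and 111 PPSs, with both replicates for 22, 26 and 27, and Adar 39, 51 and 39, with both replicates for 10, 12 and 13. On day 4, 42.3% of the Appl2 PPSs had calls of both replicates, beside 27.4% on Dido1, 24.3% on Aff1, 33.3% on Adar and 29.0% of all PPSs on protein-coding genes. The lists themselves differ in size (138689, 169575 and 152513 PPSs), and calls per call set ranged from 20927 to 91091, while read depth per library is unknown from them.

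Exonic coverage, the percentage of a gene's joined exonic nt that lay in a PPS, was taken without PPSs of 20 to 40 nt, the size of a ribosome footprint. Values per replicate used the PPSs with a call of that replicate. For Appl2, exonic coverage was 0.91% in replicate 1 and 0.84% in replicate 2 on day 0, 4.00% and 7.63% on day 2, and 19.5% and 22.7% on day 4. The replicates of the 3 days did not overlap in any pair of days. Pooled over replicates, the coverage was 1.75%, 9.60% and 24.5%, and the difference of day 4 and day 0 was 22.7 percentage points, with 18.6 to 21.9 over the 4 pairs of a later and an earlier replicate. From day 0 to day 2 the pooled difference was 7.85 points. Among the 9550 protein-coding genes with an exonic PPS, 120 genes (1.26%) had a larger rise from day 0 to day 4. The percentile of Appl2 among them went from 21.7 on day 0 to 70.8 on day 2 and 92.2 on day 4.

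For Dido1, exonic coverage was 9.62% and 9.18% in the replicates of day 0, 7.12% and 10.3% on day 2, and 11.6% and 13.3% on day 4. Day 0 and day 2 overlapped, and both day 4 values were the highest. The pooled difference of day 4 and day 0 was 3.65 points, with 2.00 to 4.10 over the pairs, and 22.7% of the 9550 genes rose by more. The pairs of Appl2 (18.6 to 21.9 points) and of Dido1 thus did not overlap.

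For Aff1, exonic coverage was 12.7% and 10.6% on day 0, 9.11% and 10.3% on day 2, and 17.2% and 10.9% on day 4. Both day 2 values were below both day 0 values, by 0.31 to 3.56 points over the pairs, while day 4 spanned day 0. With PPSs of both replicates only, this difference turned to 0.89 points. For Adar, the replicates gave 9.49% and 13.9% on day 0, 12.6% and 11.1% on day 2, and 13.1% and 8.93% on day 4, and no pair of days was apart. Pooled, the difference of day 4 and day 0 was 2.96 points for Aff1 and -1.44 points for Adar. Both controls stood above the median gene on each day, at percentiles of 80.4 to 89.5.

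**Figure D1:**
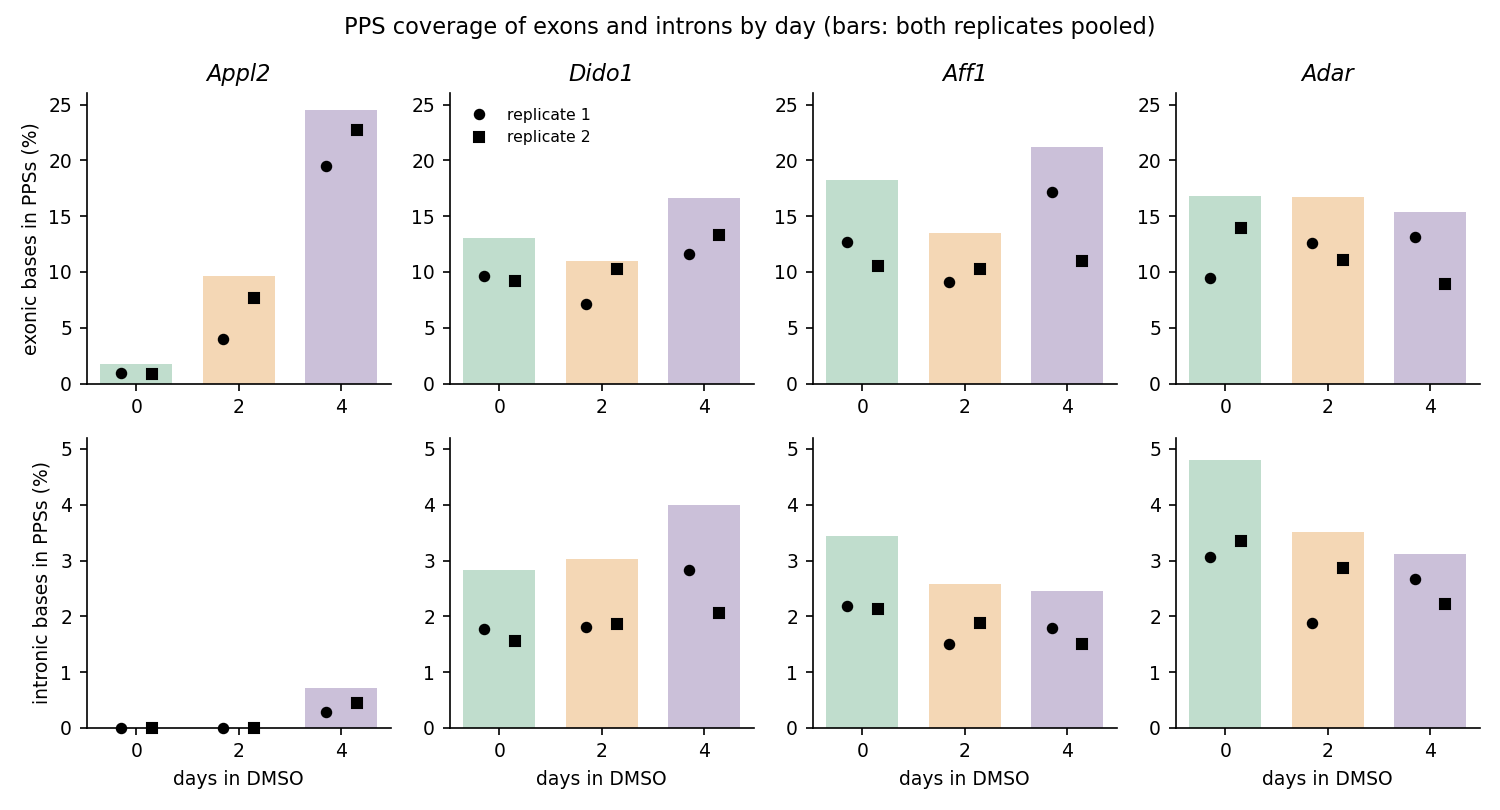
Percentage of the exonic (top) and intronic (bottom) nt of each gene in PPSs on day 0, 2 and 4 of DMSO, with bars for both replicates pooled and symbols for each replicate. Exonic coverage of Appl2 went from 1.75% to 24.5%, while Adar stayed between 15.4% and 16.8%.

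Counted over the 4 genes, 2 (Appl2 and Dido1) had higher exonic coverage on day 4 than on day 0 with replicates that did not overlap, beside 30.8% of all genes, and 0 had lower, beside 25.4%. From day 0 to day 2, Appl2 was higher (22.3% of all genes) and Aff1 lower (30.4%). From day 2 to day 4, Appl2, Dido1 and Aff1 were higher, by 14.9, 5.70 and 7.72 points, beside 33.8% of all genes, and none was lower (19.3%). Non-overlap in this sense is therefore common, and the call on Dido1 is of a kind that many genes share. Such shares over all genes were not taken for the CDS, the UTRs and the single exons and introns below. Non-overlap there is thus not shown to be particular to these genes. With 2 replicates against 2, an exact two-sided permutation test cannot go below p = 0.333, so no test was made. The replicates of a day share merged coordinates, which makes their spread too small. More RNA of a gene and more protection of the same RNA cannot be told apart in these lists, and mRNA levels were not used here.

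The calls of each RNase were also counted per 100000 calls of the same call set. Each value is thus a share of the calls in its set and also depends on that total. ssRNase calls on Appl2 were 1.56 and 1.72 in the replicates of day 0, 6.62 and 10.98 on day 2, and 25.4 and 36.9 on day 4. dsRNase calls on Appl2 were 0 and 0, then 4.84 and 0, then 8.74 and 11.5. Both RNases thus gave more calls on day 4 than on day 0, with the larger values for ssRNase. In counts, the day 0 values stand for 1 ssRNase call in each replicate, and those of day 4 for 14 and 20.

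On Dido1 the RNases did not run together. ssRNase calls were 28.2 and 19.0 per 100000 on day 0, 33.1 and 36.2 on day 2, and 39.9 and 53.5 on day 4, so that each later day lay above day 0. dsRNase calls were 46.3 and 38.8 on day 0, 24.2 and 33.4 on day 2, and 32.1 and 36.4 on day 4, so that each later day lay below it. This direction holds for day 4 only on this scale, since the unscaled dsRNase calls were 16 and 16 on day 0 and 22 and 19 on day 4, and exonic coverage by dsRNase calls was higher on day 4 by 0.71 to 1.68 points over the pairs. On Aff1, ssRNase calls were 87.6 and 91.4 on day 0 and 70.7 and 60.9 on day 4, and dsRNase calls 49.1 and 50.9 on day 0 and 62.7 and 74.7 on day 4. Here ssRNase calls were lower and dsRNase calls higher, with no overlap. Exonic coverage of Aff1 by ssRNase calls did overlap, with 8.12% and 5.47% on day 0 and 8.77% and 6.03% on day 4. How many of all genes had calls of an RNase apart between days was not counted. Adar had 26.6 and 41.4 ssRNase calls on day 0 and 25.4 and 23.97 on day 4, both below day 0, and its dsRNase calls overlapped between these days. The share of dsRNase calls in the whole lists moved as well, from 38.4% on day 0 to 27.2% on day 2 and 52.5% on day 4, and its part in these values was not tested beyond this scaling.

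**Figure D2:**
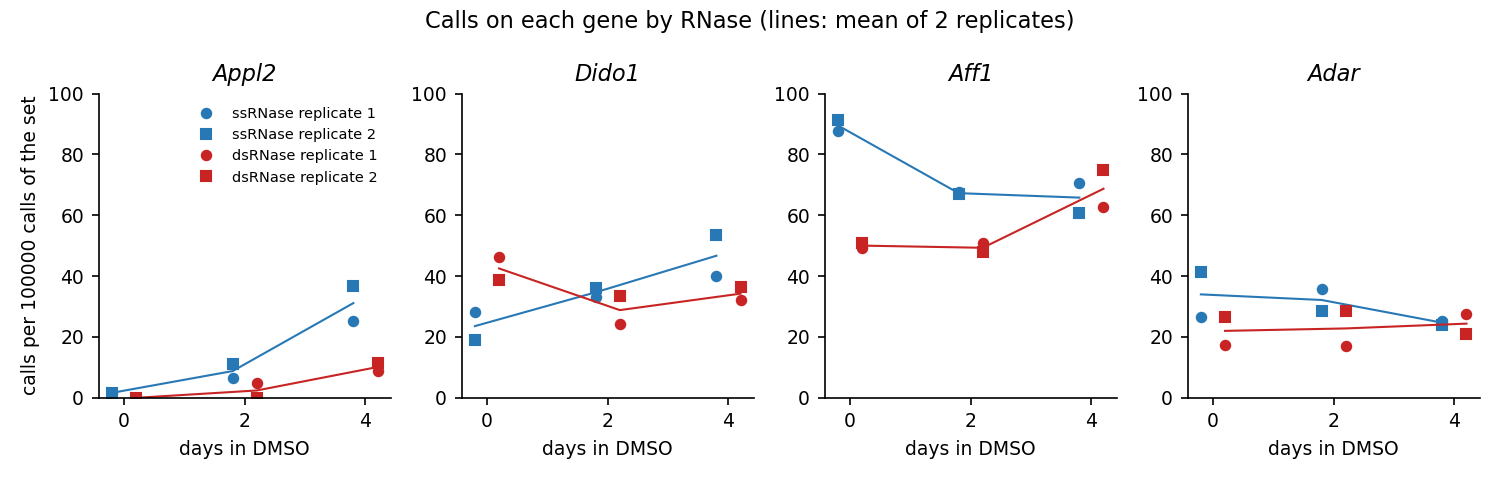
Calls on each gene per 100000 calls of the same RNase, replicate and day, with symbols for replicates and lines through their means. ssRNase calls on Appl2 reached 25.4 and 36.9 on day 4, and on Aff1 the ssRNase and dsRNase values moved toward each other.

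Of the 26 PPSs on Appl2 on day 4, 9 lay in the CDS of Appl2-201, 11 in its introns, 4 across an exon end and 2 in the 3′ UTR. Without those of 20 to 40 nt, PPSs covered 2.72% of the CDS of Appl2-201 on day 0, 19.7% on day 2 and 40.7% on day 4. The replicates gave 2.72% and 0% on day 0, 6.50% and 16.0% on day 2, and 32.3% and 40.7% on day 4, with no overlap between days. In the 3′ UTR, coverage was 5.70%, 7.98% and 23.8%, and the replicates of day 4 (14.9% and 23.8%) lay above all earlier ones. No PPS lay in the 5′ UTR. Such PPSs touched 2 of the 21 exons on day 0, 7 on day 2 and 11 on day 4.

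Both Appl2 PPSs of day 0 were still there on day 4. The one in exon 15 (chr10:83608939-83608992, score 8.35, 1 ssRNase call of replicate 1) was met on day 4 by a PPS of 58 nt with a score of 28.8 and calls of both replicates. The one in the 3′ UTR (chr10:83600760-83600809, score 10.8, 1 ssRNase call of replicate 2) was met by a PPS of 52 nt on day 2 and one of 88 nt on day 4, which had both replicates and a score of 23.8. It was the only place on Appl2 with a PPS at all 3 days. The score is an enrichment of reads with proteins over reads without, and where several calls were merged their scores seem to have been added up, so PPSs with more calls score higher.

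The other 24 of the 26 joined regions of Appl2, which merge overlapping PPSs of the 3 days, were found after induction only. This share was 92.3%, beside 51.2% of the regions on all protein-coding genes. Regions found on day 4 only made up 14 of the 26, or 53.8%, beside 18.5%. Regions with both replicates on day 4 and none on day 0 numbered 9, or 34.6%, beside 5.67%. For Dido1 the last count was 6 of 98 regions (6.12%), for Aff1 8 of 197 (4.06%) and for Adar 2 of 65 (3.08%), beside the same background. The opposite class, with both replicates on day 0 and none on day 4, held 0 regions of Appl2, 3 of Dido1 (3.06%), 5 of Aff1 (2.54%) and 1 of Adar (1.54%), beside 4.09%. A PPS at all 3 days was found in 1 region of Appl2 (3.85%), 17 of Dido1 (17.3%), 35 of Aff1 (17.8%) and 17 of Adar (26.2%), beside 17%. Appl2 had no region of day 0 only (16% of all) or of day 2 only (21.8%). Regions of 1 gene share its RNA and are not replicates.

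Appl2 had 3 regions with both replicates on day 2 and on day 4 and none on day 0, or 11.5% of its regions beside 1.1% of all. The first, of 79 nt in exon 10 (chr10:83614144-83614222), scored 15.6 on day 2 and 15.2 on day 4, with ssRNase calls alone. The second ran from exon 11 into intron 11 (chr10:83612647-83612900). On day 2 it was 3 separate PPSs of 36 to 44 nt with 1 ssRNase call each, and on day 4 it was 1 PPS of 254 nt that joined 4 ssRNase calls, 2 of each replicate. With 31.15 this was the highest score of any PPS on Appl2. The third, of 67 nt in intron 11 (chr10:83612408-83612474), scored 17.8 on day 2 and 25.7 on day 4, with ssRNase calls of both replicates and a dsRNase call of replicate 1 on each day.

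Intron 11 is exonic in Appl2-208, a transcript that keeps it. Coverage was taken over bases used by Appl2-208, or by another transcript that keeps part of intron 11, and by no further transcript. These 1279 nt had a coverage of 0% on day 0. On day 2 they stood at 8.52% and 5.24% in the replicates, and on day 4 at 20.1% and 16.2%. In all, 8 of the 14 PPSs that lay in introns of Appl2-201 touched an exon of another transcript. The lists do not tell a kept intron from an RNA not yet spliced.

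PPSs that crossed an exon end made up 4 of 41 on Appl2 over the 3 days (9.76%), all of them on day 4, 12 of 129 on Adar (9.30%), 6 of 163 on Dido1 (3.68%) and 4 of 336 on Aff1 (1.19%), beside 5.53% over all protein-coding genes. Such a PPS holds exon and intron bases side by side, as in unspliced RNA. A few of these junctions are shown 5′ to 3′ with the 15 exon bases in capitals and the 15 intron bases in lower case, to mark where the protected stretch passed the splice site.
Appl2, 3′ end of exon 11, chr10:83612697-83612726, minus strand: GCCCAGTGGCAAACCgtatgcctcagagct
Appl2, 3′ end of exon 13, chr10:83611128-83611157, minus strand: ACGGACAACCCAGAGgtaacttaaccgctt
Appl2, 5′ end of exon 14, chr10:83611052-83611081, minus strand: gtggcttacctttagGCAGTAGCCATCAAG
Dido1, 3′ end of exon 4, chr2:180687461-180687490, minus strand: AAGATATTCCAGCCTgtgagtatctgtctg
Adar, 3′ end of exon 8, chr3:89745977-89746006, plus strand: TGAGTTTGGGGACAGgtgagtgagtggtcc
Adar, 3′ end of exon 14, chr3:89750741-89750770, plus strand: AGGCACTGTGGATGGgtaaggagtgggagg

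The junctions at exons 13 and 14 of Appl2 belong to a single PPS of 120 nt on day 4 (chr10:83611057-83611176, score 20.8), which covered all of the short intron 13 between them. It had ssRNase calls of both replicates and a dsRNase call of replicate 2. The intron bases begin with GT or end with AG at each of the 6 junctions shown. The junction at exon 3 of Adar was the only one of the 4 genes that was crossed on all 3 days, with a score of at most 11.7.

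**Figure D3:**
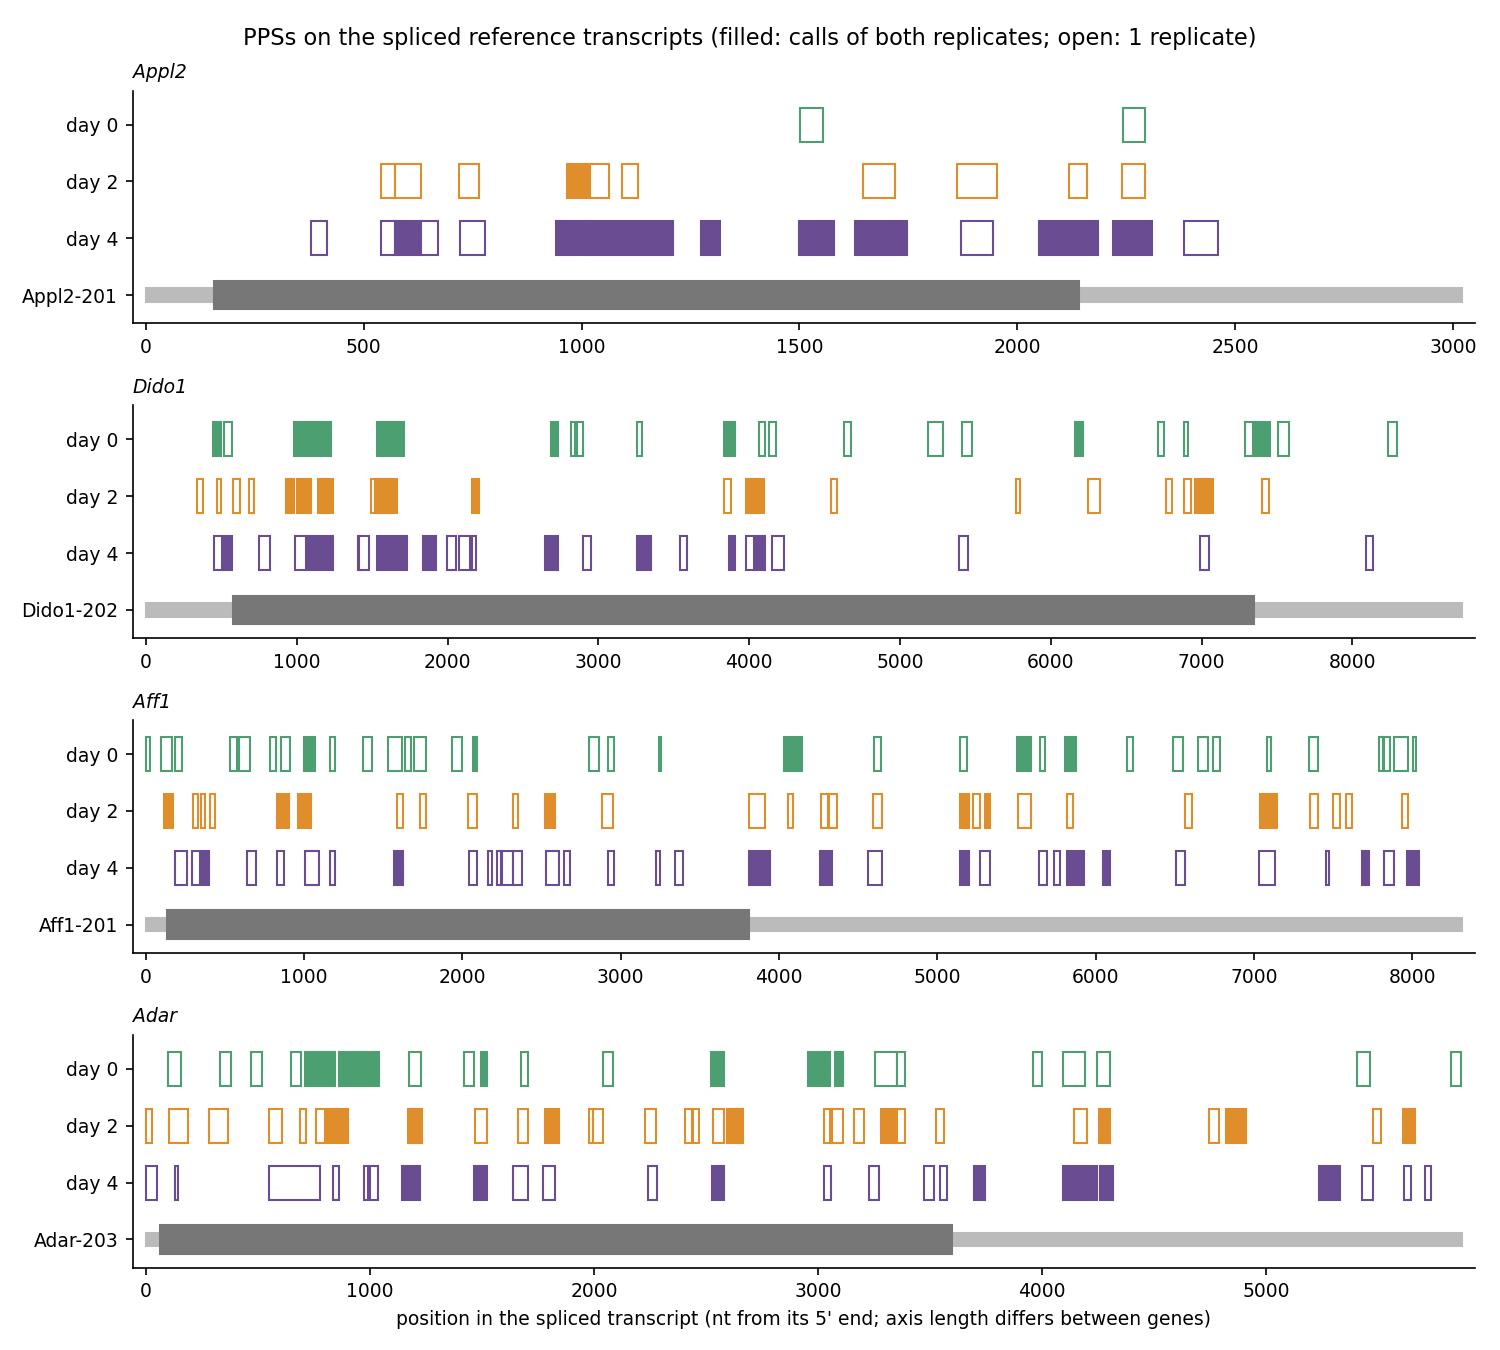
PPSs of all lengths, in nt from the 5′ end of the spliced reference transcript, by day, filled where both replicates had calls and open where 1 had, where the thick grey bar is the CDS and the thin grey bars the UTRs. Appl2 has 2 open PPSs on day 0 and a mostly filled row on day 4, whereas Dido1, Aff1 and Adar carry PPSs along most of their length at each day.

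On Dido1 the regions with the most replicate support lay in coding exons near the start. A region in exon 3 (chr2:180688990-180689298) and one in exon 4 (chr2:180687441-180687674) were the only ones on the gene with both replicates at all 3 days (2 of 98, beside 2.82% of all regions). In exon 3 the day 0 PPS was 247 nt long with 1 call from each of the 4 call sets and a score of 41.5, and at later days the region broke into shorter PPSs that scored at most 22.5 on day 2 and 23.5 on day 4. In exon 4 the scores were 44.3 on day 0, 24.7 on day 2 and 47.01 on day 4, the last being the highest on the gene. The day 0 PPS and the day 4 PPS of exon 4 held calls of all 4 call sets, and the day 2 PPS held ssRNase calls only. On day 4 the PPS reached from exon 4 into intron 4, across the junction printed above.

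CDS coverage of Dido1-202 was 11.1% and 12.3% in the replicates of day 0, 11.2% and 13.1% on day 2, and 15.4% and 16.5% on day 4, so thon day 4 lay above both other days. The 3′ UTR ran the other way. It had 17.1% and 7.55% on day 0, 0% and 3.27% on day 2, and 0% and 3.70% on day 4. PPSs outside 20 to 40 nt touched 7 of the 16 exons on day 0, 6 on day 2 and 11 on day 4.

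The 3′ ends of the Dido1 isoforms therefore differed. Dido1-204 and Dido1-207, the short transcripts, end in a stretch of 2751 nt that follows exon 6 (chr2:180681058-180683808) and is intron in Dido1-202. Its coverage was 6.58% and 6.11% in the replicates of day 0, 6.72% and 11.7% on day 2, and 15.1% and 14.8% on day 4. The last exon of Dido1-202, of 4620 nt (chr2:180657964-180662583), had 8.46% and 8.23% on day 0, 3.51% and 7.21% on day 2, and 0% and 5.28% on day 4. So both day 4 values were above day 0 in the short end and below it in the last exon of Dido1-202. Only 1378 nt of that exon are 3′ UTR, and its 4 PPSs of day 4 had calls of replicate 2 alone. The bases used only by Dido1-201 and Dido1-206 (1453 nt in 2 stretches) had 3.37% to 7.98% pooled, with PPSs of replicate 2 alone. These bases include the 5′ start of Dido1-201 beside the 3′ end of both transcripts. The lists hold no reads across junctions, so which transcript a PPS came from is not known.

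The short end also held the strongest site of Dido1 on day 2. A PPS of 67 nt at chr2:180681237-180681303 scored 32.0, with ssRNase calls of both replicates and a dsRNase call of replicate 2. On day 0 this place had a PPS of 45 nt with 1 call and a score of 8.14, and on day 4 one of 59 nt with both replicates and a score of 21.0. A second site there, at chr2:180682077-180682179, was absent on day 0 and had both replicates on day 2 (score 24.2) and day 4 (score 13.6). Of the 93 PPSs in introns of Dido1-202, 25 touched an exon of another transcript.

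Further Dido1 regions with both replicates on 2 days lay in intron 6 (chr2:180679820-180679932), exon 8 (chr2:180674738-180674826), exon 14 (chr2:180670258-180670340) and exon 15 (chr2:180669367-180669516). The regions of exons 14 and 15 ran across the 3′ ends of these exons. Their scores were 21.9, 6.81 and 18.5 for exon 14 on day 0, 2 and 4, and 5.4, 12.4 and 21.9 for exon 15. The exon 8 region had no PPS on day 2. The intron 6 region held 2 PPSs on day 0 and 2 on day 4, each with 1 call, so its replicates came from separate PPSs.

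**Figure D4:**
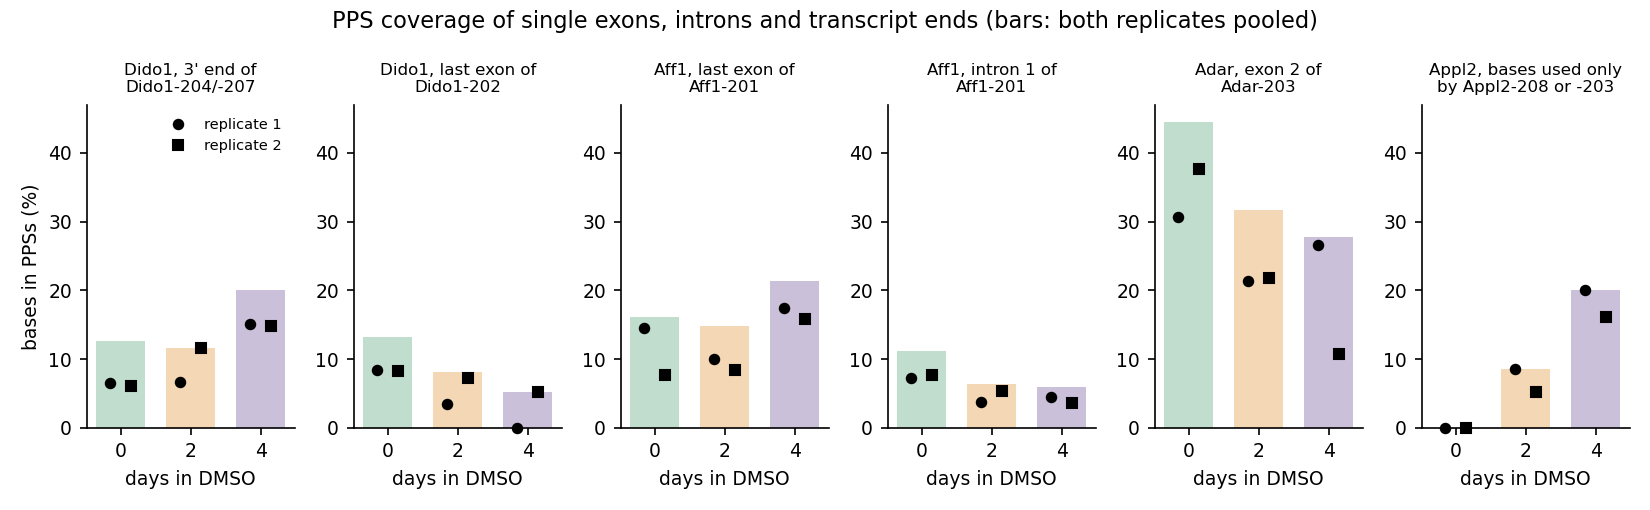
Percentage of nt in PPSs for single exons, introns and transcript ends of the 4 genes by day, with bars for both replicates pooled and symbols for each replicate. The short 3′ end of Dido1 went from 12.7% to 20.03% while the last exon of Dido1-202 went from 13.2% to 5.28%.

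Most Aff1 PPSs were not exonic. Of its 336 PPSs, 233 (69.3%) touched no exon, beside 46.0% on Dido1, 37.2% on Adar, 14.6% on Appl2 and 42.2% of the PPSs on all protein-coding genes. Intron 1 of Aff1-201, of 28378 nt, held 115 of them, 44 on day 0, 36 on day 2 and 35 on day 4. Its coverage was 7.21% and 7.68% in the replicates of day 0, 3.78% and 5.32% on day 2, and 4.42% and 3.55% on day 4, so that both later days lay below day 0. Upstream of Aff1-201 the gene is annotated only by parts of other transcripts. There, 9 PPSs lay outside Aff1-201, and 6 of these were in the first exon of Aff1-202. In the plot of scores along the gene bodies, the dense run of PPSs on Aff1 begins at the 5′ end of Aff1-202.

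That first exon of Aff1-202 (chr5:103754163-103754341) was 1 of 3 Aff1 regions with both replicates at all 3 days. Its best scores were 27.4 on day 0, 41.0 on day 2 and 9.98 on day 4. On day 4 it held 2 PPSs with 1 ssRNase call each, so its replicates of that day came from separate PPSs. The other 2 regions lay in intron 1. One (chr5:103762937-103763080) scored 12.2, 20.5 and 13.8 on day 0, 2 and 4, and the other (chr5:103781136-103781229) 22.0, 20.5 and 10.8. A further 17 Aff1 regions had both replicates on 2 days. Of these, 13 lay in introns, 6 of them in intron 1, 1 in coding exon 3 and 3 in the 3′ UTR. The best intronic score among them was 29.4, on day 0 in intron 3 (chr5:103798494-103798567).

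The 3′ UTR of Aff1 lies in the last exon and has 4502 nt. Its coverage was 15.0% and 7.84% in the replicates of day 0, 10.3% and 8.57% on day 2, and 17.8% and 16.2% on day 4. Both day 4 values were above the others, and the share of all genes with such a rise was not counted. It held the best-scoring Aff1 PPS of day 0 (chr5:103852512-103852604, 30.9) and of day 4 (chr5:103851269-103851346, 29.4). The CDS gave 8.54% and 12.4% on day 0, 7.31% and 10.8% on day 2, and 19.6% and 6.58% on day 4, with overlap between all days.

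On Adar, exon 2 and the intron after it held PPSs on each day. Exon 2 (chr3:89734842-89736273, 1432 nt) had a coverage of 30.7% and 37.6% in the replicates of day 0, 21.4% and 21.8% on day 2, and 26.6% and 10.8% on day 4. Both later days were below day 0. It held the highest score of all 669 PPSs, 49.5, in a PPS of 176 nt on day 0 (chr3:89735614-89735789) with ssRNase calls of both replicates and a dsRNase call of replicate 1. Intron 2, of 1716 nt, had 15 PPSs, or 8.74 per kb, beside 4.05 per kb for intron 1 of Aff1. Pooled, its coverage hardly moved, with 25.6% on day 0, 26.9% on day 2 and 26.6% on day 4. The 3′ UTR of Adar had 4.49% and 8.84% in the replicates of day 0 and 8.27% and 12.8% on day 2. On day 4 it had 15.3% and 17.5%, both above all earlier values. How many of all genes rose in this way in the 3′ UTR was not counted.

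The Adar regions with both replicates at all 3 days lay in intron 2 (chr3:89736424-89736578) and in the 3′ UTR (chr3:89751669-89751892). The first scored 23.4, 16.6 and 25.5 on day 0, 2 and 4 with ssRNase calls alone. The second had best scores of 8.28, 13.8 and 29.6, and on day 4 it held 3 dsRNase calls beside 2 ssRNase calls. On day 0 it held 2 separate PPSs, each with calls of 1 replicate only. A further 8 Adar regions had both replicates on 2 days. These were 3 in exon 2, 2 in intron 2, 2 in intron 6 and 1 across the 3′ end of exon 8, whose scores were 27.8, 8.14 and 25.4. The strongest PPS of day 2, with a score of 31.4, crossed the 3′ end of exon 14 (chr3:89750683-89750763), where day 0 had a PPS with a score of 33.1 and day 4 a PPS of 47 nt with 6.82 inside the exon.

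**Figure D5:**
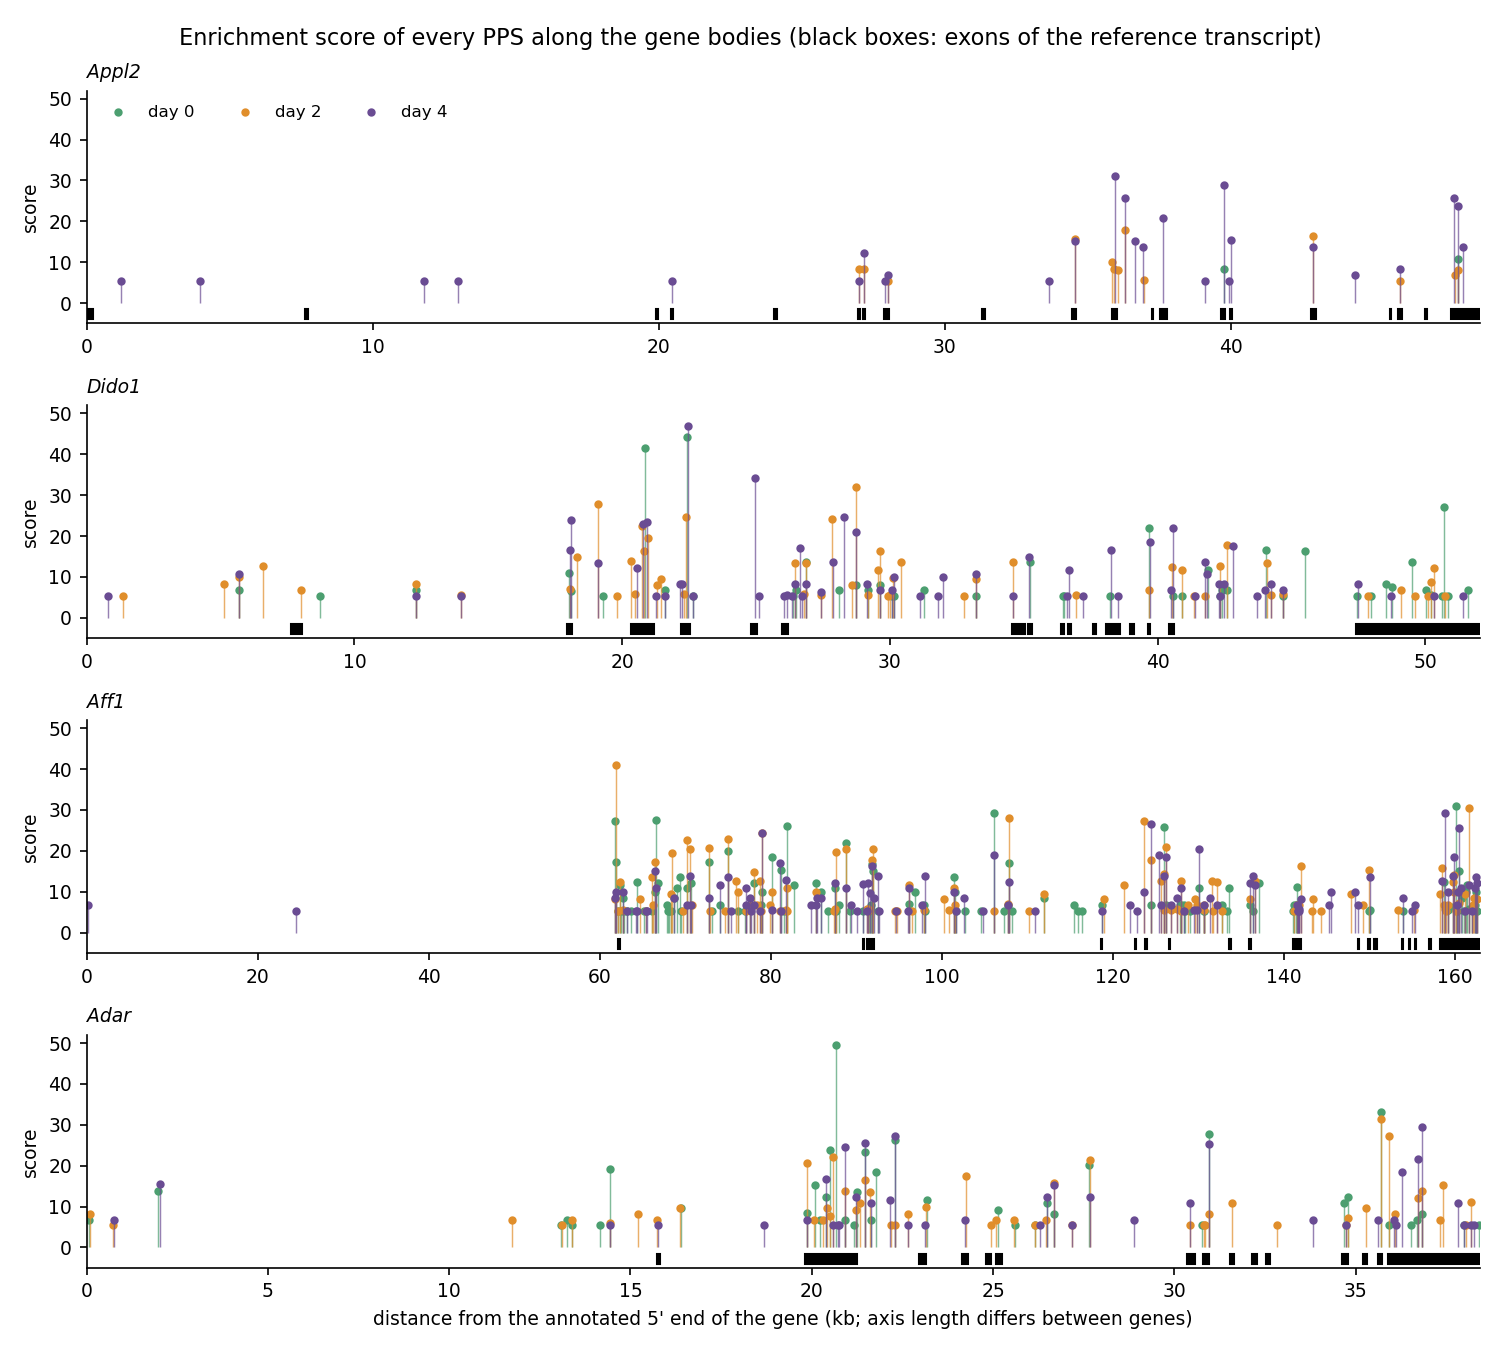
Enrichment score of every PPS against the distance from the 5′ end of the gene in kb, coloured by day, with black boxes for the exons of the reference transcript. The highest points are 49.5 in exon 2 of Adar on day 0 and 47.01 in exon 4 of Dido1 on day 4, and intronic PPSs fill intron 1 of Aff1.

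Intronic coverage, over bases that are exonic in no transcript of the gene, was higher on day 4 on the targets and lower on the controls. For Appl2 it was 0% in both replicates of day 0 and day 2, and 0.28% and 0.44% on day 4. The 6 Appl2 PPSs of day 4 that touched no exon had 1 call each, with scores of 5.4 or 6.82. None of them lay where the other replicate had a call, so the rise on Appl2 rests on single calls. For Dido1 the pooled values were 2.82%, 3.02% and 4.00%, with both replicates higher on day 4 than on day 0 by 0.29 to 1.28 points. For Aff1 they were 3.44%, 2.57% and 2.45%, and for Adar 4.80%, 3.51% and 3.12%, with both replicates lower on day 2 and on day 4 than on day 0. So 2 of the 4 genes were higher on day 4 with replicates apart, beside 26.9% of the 7333 genes with an intronic PPS, and 2 were lower, beside 24.4%. From day 0 to day 2, Dido1 was higher (26.9% of genes) and Aff1 and Adar were lower (18.7%). From day 2 to day 4, Appl2 and Dido1 were higher (19.5%) and none was lower (23.6%). With 4 genes, this difference between targets and controls was not tested. It also depended on the definition of introns. Over the introns of the reference transcripts, Appl2, Dido1 and Aff1 kept their directions from day 0 to day 4 with replicates apart. Adar did not, with 3.04% and 5.38% on day 0 and 4.71% and 3.70% on day 4.

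The genes with the most alike pattern to each of the 4 were chosen by the smallest Euclidean distance between the 6 exonic coverage values of days and replicates, among 4675 genes. For Appl2 they were Fads3 (1.97 points away), Fbxo9 (6.38) and Pkhd1l1 (6.70), with a median distance of 26.5 over all genes. Fads3, a fatty acid desaturase gene, had 0% in both replicates of day 0, 3.51% and 6.94% on day 2, and 18.4% and 23.3% on day 4. For Dido1 they were Cdc42ep4 (1.94), Ptbp2 (2.34) and Cog3 (2.41), for Aff1 Arnt (3.004), Tufm (3.09) and Hcfc1 (3.79), and for Adar Zbtb7a (3.55), Zfp263 (3.55) and Acly (3.601).

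The other genes of each pathway gave the following counts for exonic coverage on day 4 against day 0, where higher and lower mean replicates that do not overlap. Over all genes, 30.8% were higher and 25.4% lower in this sense. Of 17 APPL and Rab5 endosome genes with an exonic PPS, 4 were higher and 6 lower, beside the 30.8% and 25.4% of all genes. The median change was 0.62 points, beside 0.00 for all genes. Rab5b, a Rab5 GTPase, went from 4.93% to 14.9%, and Inpp5b, an inositol phosphatase of endosomes, from 20.4% to 6.89%. The other Rab5 genes were lower with replicates apart, Rab5a going from 9.96% to 2.01% and Rab5c from 19.3% to 15.3%, and both are named after their values were seen. Appl1, the paralog of Appl2, had 0.46%, 1.80% and 1.08%, so its level was far below that of Appl2 on day 4.

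Of 7 genes of SPOC proteins and transcript elongation, 3 were higher and 2 lower (30.8% and 25.4% of all genes), with a median change of 2.18 points. Rbm15, a SPOC protein of the m6A writer complex, went from 34.7% to 45.0%, and Tcea2, an elongation factor, from 9.54% to 0%. Of 15 genes of the AFF family and the super elongation complex, 5 were higher and 3 lower (30.8% and 25.4% of all genes), with a median of 0.16 points. Ell2, an elongation factor of that complex, had 1.05% and 2.45% in the replicates of day 0 and 22.2% and 18.8% on day 4, and Hexim1, an inhibitor of P-TEFb, went from 6.27% to 25.6%. The changes of both were thus larger than that of Aff1 itself.

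Of 11 genes of RNA editing and double-stranded RNA sensing, 1 was higher and 4 lower (30.8% and 25.4% of all genes), with a median of -0.99 points. Adat1, a tRNA adenosine deaminase, went from 10.7% to 2.82%. Of 11 genes of the H/ACA complex and its assembly, 0 were higher and 6 lower (30.8% and 25.4% of all genes), with a median of -1.88 points. Nolc1, a nucleolar phosphoprotein that binds H/ACA particles, went from 37.5% to 8.81%, and Nhp2, a core protein of these particles, from 31.5% to 14.0%. Dkc1, the gene of the protein that was pulled down, is named here after its values were seen. It had 24.9% and 23.9% in the replicates of day 0, 13.7% and 8.95% on day 2, and 10.1% and 10.5% on day 4.

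Markers of cell types were looked at to check the label of the cells. Of 13 erythroid markers, 12 had an exonic PPS, and 9 were higher on day 4 and 0 lower (30.8% and 25.4% of all genes), with a median change of 25.3 points. Of 11 markers of other lineages, 9 had no exonic PPS, and the 2 that had, Pf4 and Itga2b, are megakaryocyte genes. Itga2b was higher on day 4 with replicates apart, going from 37.9% to 44.2%. Pf4 went the other way, from 31.2% on day 0 to 11.5% on day 4, with overlapping replicates.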

How the data were processed

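The authors called PPSs against mm10 with a modified CSAR package, as a Poisson enrichment of footprinting over structure-only libraries at a false discovery rate of 5%, after trimming and aligning (cutadapt 1.2.1 and TopHat2 2.0.10 in the submitters' processing notes). The deposited lists give 1 enrichment score per PPS, with a minimum of 5.4. They are pooled per day, and replicate values were rebuilt from the names of the calls. How libraries were scaled is not given in the sources used here.

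Genes, exons and sequences were taken from GENCODE M21 and GRCm38. All PPS ends lay within its chromosome lengths. Coverage left out PPSs of 20 to 40 nt, and PPSs of different days were joined at 1 nt of overlap. The interval arithmetic was checked by adding 1 PPS to each of 200 genes among 6000 in a copy of the day 0 list. All 200 changes came back exactly. Because the 2 lists were otherwise the same, this says nothing on how well real changes are detected. Python 3.11.15, pandas 2.3.3 and numpy 2.4.6 were used. The genes, the pathway lists and the rules were chosen with earlier results of these data known. Named were the 4 genes, the 3 genes most alike to each, the 2 of each list with the largest change, and regions with both replicates on 2 or more days or the highest score of a day. Some genes that these rules name are not reported here. Whether replicates came from separate cultures is not given in the labels.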

Additional observations from a re-analysis of the deposited data

Results flagged for a closer look

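Calls of the ssRNase and of the dsRNase moved in opposite directions in 3 comparisons, with all 4 pairs of replicates of an RNase on the same side. These differences between RNases were not tested.

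For intronic coverage of Aff1, day 4 minus day 0 was -0.96 points with ssRNase calls and 0.48 points with dsRNase calls, as means over the replicates. The same opposite directions were found in 5.09% of the 7333 genes with an intronic PPS. For intronic coverage of Aff1 at day 4 minus day 2, the values were -0.49 points and 0.55 points, and 7.25% of the genes had these directions. For exonic coverage of Adar at day 4 minus day 2, they were -2.57 points and 2.65 points, and 4.96% of the 9550 genes had them. In the reverse sense, ssRNase higher and dsRNase lower, the shares of genes were 0.12%, 0.04% and 0.39%. dsRNase calls made up 52.5% of all calls at day 4, beside 38.4% at day 0 and 27.2% at day 2, and their part in these values was not tested.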

How the results depend on the processing

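The changes of exonic coverage from day 0 gave 98 alternative values, of which 62 lay within the replicate spread of the value in the report. In all, 21 changed sign, 11 of them by leaving out a replicate. Of the 21, 4 were of changes whose replicates did not overlap, and 17 of changes of Dido1 on day 2, Aff1 on day 4 or Adar, whose replicates overlapped. With PPSs of both replicates only, Appl2 gave 2.03 points at day 2 and 17.8 at day 4, Dido1 0.62 at day 2, and Aff1 turned to 0.89 at day 2. With ssRNase PPSs only, day 2 gave 0.60 for Dido1 and -0.35 for Aff1. With dsRNase PPSs only, Appl2 gave 2.39 at day 2 and 11.7 at day 4, and Dido1 1.41 at day 4. At a score of 10 or more, day 2 gave 2.45 for Appl2, 1.05 for Dido1 and -0.25 for Aff1, and day 4 19.1 for Appl2. On the exons of 1 transcript, Appl2 gave 11.9 and 30.2. The direction of Appl2 was the same in each of these.

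Leaving out 1 replicate takes its calls from 1 pooled day and so lowers that day by construction, which tests no direction. The ranges were 2.25 to 8.76 at day 2 and 17.8 to 23.7 at day 4 for Appl2, -5.89 to 1.78 and -1.39 to 7.48 for Dido1, -9.09 to 2.89 and -7.26 to 10.6 for Aff1, and -5.74 to 7.24 and -7.90 to 5.90 for Adar. Aff1 at day 2 was 2.89 without day 0 replicate 1 and 0.77 without day 0 replicate 2, and Dido1 at day 4 was -1.39 without day 4 replicate 2. Leaving out the 1365 nt of Adar exons that face exons of Chrnb2 on the other strand, chosen after seeing the data, gave -1.18 at day 2 and -2.25 at day 4. Read depth bears on which PPSs can be called and is not given by the lists. No paired analysis was possible because the values come from no test, the lists hold no counts per library, and the labels link no replicate of one day to a replicate of another.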

Other observations

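PPSs of 20 to 40 nt, which were left out of coverage, numbered 7 on Appl2, 29 on Dido1, 54 on Aff1 and 25 on Adar. On Dido1 they made up 15.2% of PPSs on day 0, 29.1% on day 2 and 9.68% on day 4, and on Aff1 9.65%, 23.4% and 15.3%. Over all protein-coding genes the shares were 17.5%, 29.8% and 20.2%, so thon day 2 was the highest there as well.

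On the strand opposite to the gene, Appl2 had 2 PPSs and Dido1, Aff1 and Adar had 0. Over protein-coding genes with a sense PPS there were 3.89 antisense PPSs per 100 sense ones, and 86.5% of these genes had none.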
